A study of Homo sapiens with 20 samples.

Results

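This report covers 10 interferon-stimulated genes, MX1, MX2, IFI16, ISG15, IFIT1, IFIT2, IFIT3, IFI6, IFITM1 and IFI44L, of the 60624 gene identifiers in the organoid files and the 60623 in the progenitor files. They were picked by symbol, with their values in wild type and knockout cells already known, so those values chose the members and are given for them as a description with no test. All cells came from an established human embryonic stem cell line, labelled MEL1 hESC and described in the study's methods as the MEL1 INS-GFP/W reporter, which carries GFP at the insulin gene. They were either wild type (WT) or lacking the RNA demethylase ALKBH5 (A5-KO). A5-KO had been made with CRISPR-Cpf1 guides in the first exon and picked as colonies, and the labels do not say which clone was sequenced. Human islet-like organoids (hILOs) gave 2 WT and 2 A5-KO libraries, with no drug and with media listed to day 22 in the labels and a further medium after it in the study's methods, so the day of collection is unclear. Pancreatic progenitors (PPs), with media listed to day 14, gave 2 libraries per genotype at 0, 1, 2 and 3 h of 1 µg/ml actinomycin D (Act D), a drug that blocks transcription. The labels do not say that replicates were separate cultures, while the study describes its PP Act D series as biological replicates, so p-values measure the spread between these libraries, whose source is not further described.

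Interferons are secreted signals of infection. They bind receptors that pass the signal through JAK kinases to STAT and IRF factors, which switch on interferon-stimulated genes by binding a DNA element made of repeated GAAA blocks, the interferon-stimulated response element. Stem cells are known for expressing a subset of such genes without added interferon, and pancreatic islet cells respond strongly to interferon. Of the 10 genes, IFI16 encodes a DNA sensor, MX1 and MX2 are dynamin-like antiviral GTPases, and IFIT1, IFIT2 and IFIT3 bind viral RNA or partner in doing so. ISG15 is a ubiquitin-like modifier, IFITM1 a membrane protein that restricts virus entry, IFI6 a small membrane protein, and IFI44L a cytoplasmic protein.

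The response element is shown in 4 promoters because it is the sequence feature that most of the members share. The core searched was GAAANNGAAA, on either strand, in the 250 bases before each RefSeq gene start (GRCh38.p14). Promoters were found for 8 of the 10 members, all but MX2 and IFIT2, and 7 of these 8 genes held a match. Of all 27305 genes with a RefSeq promoter, 1014 held one, or 3.71%, and among the 40 other interferon-stimulated genes matched from a fixed list, 22 did. IFI16 had no match in the windows of its 2 start sites, and MX1 had 1 match in the windows of its 3. The stretches below are written 5′ to 3′ on the strand of the gene, with the matches in capitals. They come from chr1:1013365-1013424 (plus strand) for ISG15, chr1:27672251-27672310 (minus strand) for IFI6, chr10:89392495-89392554 (plus strand) for IFIT1 and chr11:313990-314019 (plus strand) for IFITM1. Of these stretches, 23 bases of the IFITM1 one and 9 of the IFIT1 one are annotated as untranslated transcript sequence. A match of letters is a description and no sign of binding.
ISG15: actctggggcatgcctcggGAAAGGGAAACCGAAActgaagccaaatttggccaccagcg
IFI6: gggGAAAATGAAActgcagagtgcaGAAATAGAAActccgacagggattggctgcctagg
IFIT1: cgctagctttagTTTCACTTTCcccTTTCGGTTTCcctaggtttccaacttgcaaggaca
IFITM1: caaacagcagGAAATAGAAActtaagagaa
ISG15 carries 2 overlapping matches in this stretch and IFIT1 carries 2 on the opposite strand.

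The labels were checked on ALKBH5 first. It measured 78.8 to 81.9 TPM (a level scaled to gene length and to library total) in WT hILOs and 3.42 to 4.16 TPM in A5-KO hILOs. In PPs it measured 33.7 to 172 CPM (reads scaled to library total) over the 8 WT libraries and 7.43 to 19.1 CPM over the 8 A5-KO libraries, so no library went against its label. PP libraries held 30516384 to 35206514 reads, so that 1 read was worth 0.0284 to 0.0328 CPM. TPM and CPM tables were normalized separately, and levels in hILOs and PPs are therefore set side by side only. Markers of the labelled cells were present. The summed endocrine list of 5 genes was 34284 to 36621 TPM in WT against 26340 to 27546 TPM in A5-KO hILOs. Within it INS went from 12978–13033 to 7605–7606 TPM, while NEUROD1 alone rose, from 208–209 to 350–352 TPM. The pancreatic progenitor list of 6 genes was 815 to 1039 CPM in WT PPs at 0 h. In A5-KO PPs it was 742 to 820 CPM, overlapping WT. The summed liver list of 7 genes moved with genotype at both stages, at 19737 to 20090 TPM in WT against 32131 to 32418 TPM in A5-KO hILOs, and at 1090 to 1139 CPM in WT against 1896 to 1922 CPM in A5-KO PPs at 0 h. Its genes did not move as one. In hILOs TTR went from 7527–7550 TPM in WT to 18674–18749 TPM in A5-KO, while FGB went from 1362–1394 to 737–748 TPM and APOA1 overlapped. In PPs at 0 h AFP went from 551–563 to 1294–1343 CPM, while SERPINA1 went from 311–371 to 200–268 CPM. The mesenchyme list of 8 genes also moved, from 6.49–11.1 to 24.8–30.5 TPM in hILOs and from 109.8–117.6 to 158–169 CPM in PPs at 0 h. Its genes disagreed as well. In hILOs COL1A2 went from 2.65–5.98 to 15.6–19.0 TPM, while PDGFRA and THY1 were lower, THY1 at 0.422–0.433 against 0.206–0.227 TPM. In PPs at 0 h COL3A1 went from 22.0–24.1 to 58.8–64.5 CPM, while COL1A2 went from 69.0–73.9 to 64.7–68.7 CPM. The immune list of 8 genes was 775 to 783 TPM in WT against 1174 to 1178 TPM in A5-KO hILOs, and 133 to 141 CPM in WT against 104 to 108 CPM in A5-KO PPs at 0 h. LYZ and CD74 carried most of the immune sum, while PTPRC, which defines blood cells, was at 0 in every PP library and at most 0.043 TPM in hILOs. The endothelial list of 6 genes stayed at or below 4.14 TPM in hILOs and at 4.43 to 9.02 CPM in PPs at 0 h, with VWF at 0 in PPs at that time. The pluripotent list of 6 genes was 20.5 to 20.6 TPM in WT hILOs and 8.63 to 8.75 TPM in A5-KO hILOs, but 124 to 127 CPM in WT PPs and 236 to 250.3 CPM in A5-KO PPs at 0 h. LIN28A alone carried that PP rise, at 115 to 119 CPM in WT and 230 to 246 CPM in A5-KO. SOX2 and DPPA4 were lower in A5-KO PPs at 0 h, and POU5F1, NANOG and TDGF1 stayed at or below 0.146 CPM. The part of these lists in the results below was not tested, and in such bulk RNA fewer cells of a type and less RNA per cell cannot be told apart.

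hILOs expressed all 10 genes, over a wide range of levels. TPM is scaled to gene length, so the genes can be ordered by it. In WT hILOs IFI6 was highest at 1094 and 1066 TPM. ISG15 came next at 233 and 226 TPM, then IFITM1 at 162 and 152 TPM, MX1 at 73.6 and 72.2 TPM and IFIT3 at 31.4 and 39.2 TPM. These 5 genes held separate ranges in that order, in both genotypes. Below them IFIT1 and IFI16 overlapped in WT, IFI44L and IFIT2 followed, and MX2 was last at 0.904 and 1.15 TPM. In A5-KO MX2 no longer came last, since it overlapped IFI44L and lay above IFIT2.

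**Figure D1:**
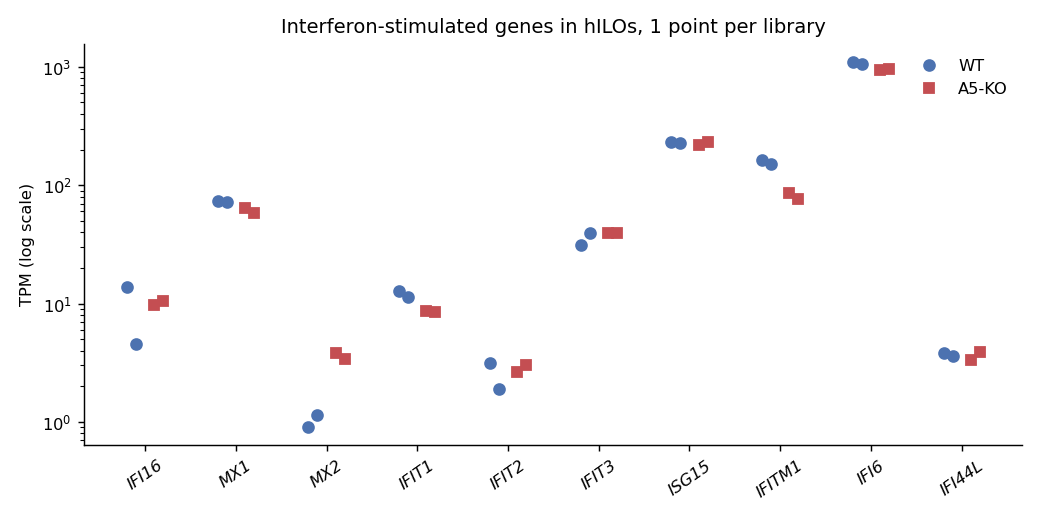
TPM of the 10 genes on a log axis, 1 point per hILO library, 2 libraries per genotype. MX2 sits near 1 TPM in WT and above 3 TPM in A5-KO, IFITM1 is lower in A5-KO, and the WT libraries of IFI16 lie far apart.

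In PPs the order of the genes differed. To order them, the CPM values at 0 h were divided by exon length and rescaled to the same sum in every PP library. This length-scaled level depends on the annotation used. The deposited hILO TPM summed to 887320 to 924887 a library, below the sum used for PPs. IFI6 led in WT at 28.9 to 32.7, overlapping ISG15 at 23.1 to 31.5. IFITM1 followed at 11.8 to 14.1 and IFI16 at 4.52 to 4.61, and the other 6 genes lay at 1.28 or less. In A5-KO PPs ISG15 led at 30.8 to 32.1, followed by IFI16 at 21.3 to 27.5, IFI6 at 9.10 to 19.0 and MX2 at 2.97 to 4.53, the last overlapping IFITM1 at 2.27 to 3.57. On the CPM scale, 6 of the 10 genes reached a mean of 1 CPM over the 16 libraries: MX2, IFI16, ISG15, IFIT1, IFI6 and IFITM1. The other 4, MX1, IFIT2, IFIT3 and IFI44L, did not and entered no test in PPs.

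IFI16, the DNA sensor, was higher in A5-KO PPs at every time. At 0 h its CPM was 7.58 and 7.59 in WT and 46.5 and 36.6 in A5-KO, a 5.48-fold difference in the means and a log2 difference of 2.30 ± 0.17 (SE, 2 libraries a group, on log2(CPM + 1)). In WT the next times gave 6.98 and 6.73 (1 h), 6.19 and 9.92 (2 h), then 11.8 and 17.7 CPM (3 h). In A5-KO they gave 30.5 and 31.5 (1 h), 25.0 and 22.8 (2 h), then 25.5 and 22.1 CPM (3 h). The genotypes did not overlap at any time, but they drew closer, and the difference of the means was 1.62-fold at 3 h. In hILOs no such separation was seen: the WT libraries were 13.8 and 4.55 TPM, the A5-KO libraries 9.67 and 10.5 TPM, and the groups overlapped. The sign of the hILO difference (log2 0.29) rested on that WT pair, since it was 1.00 without WT replicate 1 and -0.41 without WT replicate 2. IFI16 shares 425 of its exon bases with PYDC5 on the opposite strand, and its neighbours in the same family of sensors, AIM2 and PYHIN1, were at 0 in all PP libraries.

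MX2 gave the widest separation of the 10 genes. At 0 h it measured 0.402 and 0.589 CPM in WT PPs against 21.0 and 14.0 CPM in A5-KO PPs, a 35.4-fold difference of the means, with single pairs of libraries from 23.8 to 52.4. Across all times the 8 WT libraries held 6 to 108 reads each and the 8 A5-KO libraries 479 to 812 reads. The highest WT library, at 3 h, reached 3.22 CPM and the lowest A5-KO library, at 0 h, 14.0 CPM. In hILOs MX2 rested on low levels, at 0.904 and 1.15 TPM in WT against 3.79 and 3.41 TPM in A5-KO, 3.51-fold higher in the means, again with no overlap.

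MX1, its paralog, lies 10627 bases from MX2 on chromosome 21, went the other way in hILOs and differed far less in PPs. In hILOs it was 73.6 and 72.2 TPM in WT against 64.1 and 58.6 TPM in A5-KO, 1.19-fold lower in A5-KO. In PPs it had only 7 to 27 reads in a WT library and 14 to 34 in an A5-KO library. The A5-KO libraries lay above the WT libraries at 0, 1 and 2 h, with 0.464 and 0.937 against 0.345 and 0.434 CPM at 0 h, and overlapped them at 3 h. FAM3B, which lies 4272 bases from MX2 on the other side, stayed between 0.163 and 0.788 CPM in PPs. MX1 shares 562 exon bases with TMPRSS2 on the opposite strand, which measured 282 to 357 TPM in hILOs, and reads of such a pair cannot be told apart unless counting used strand, which is not stated.

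**Figure D2:**
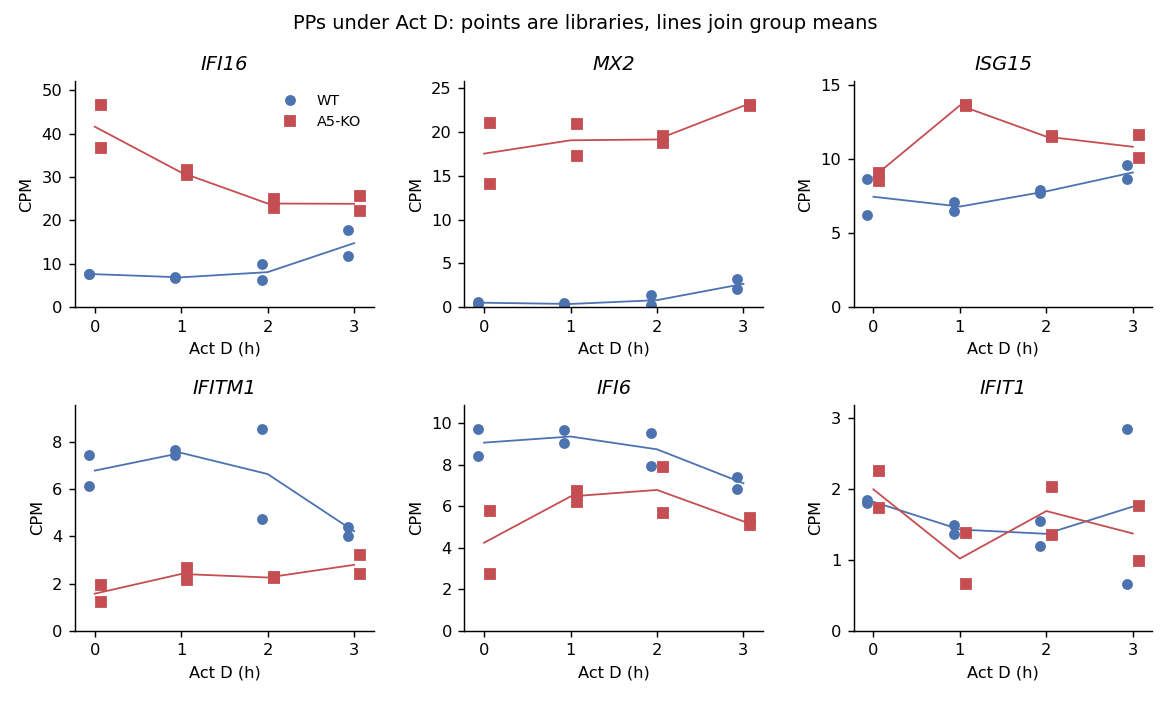
CPM of the 6 genes averaging 1 CPM or more in PPs against hours of Act D, with 1 point per library and lines through the group means. IFI16 and MX2 are higher and IFITM1 lower in A5-KO at each time, IFI16 converges toward 3 h, and IFIT1 overlaps throughout.

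The IFIT genes, whose products act together on viral RNA, overlapped between the genotypes in most settings. IFIT1 was 12.7 and 11.4 TPM in WT hILOs against 8.56 and 8.54 TPM in A5-KO hILOs, 1.41-fold lower in A5-KO. In PPs it overlapped at all 4 times, from 0.656 to 2.84 CPM in WT and from 0.662 to 2.26 CPM in A5-KO. IFIT3 in hILOs was 31.4 and 39.2 TPM in WT against 39.3 and 39.3 TPM in A5-KO, so that the groups were apart by a margin far below the spread of the WT pair. In PPs it ran from 0.179 to 1.26 CPM in WT and from 0.0949 to 1.03 CPM in A5-KO, and overlapped at every time. IFIT2 was 3.12 and 1.89 TPM in WT hILOs against 2.64 and 3.05 TPM in A5-KO hILOs. In PPs it had 2 to 10 reads in a WT library and 0 to 19 in an A5-KO library. Neither A5-KO library at 3 h had a read, which allows up to 3 reads, or 0.0852 and 0.0949 CPM in these libraries. That limit covers counting error only, and the WT libraries at 3 h were at 0.119 and 0.253 CPM, so the depth shows little there. IFIT2 and IFIT3 share 65 and 94 exon bases with LIPA on the opposite strand, a far more abundant transcript at 228 to 331 TPM in hILOs.

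ISG15 overlapped between the genotypes in hILOs, at 233 and 226 TPM in WT against 217 and 231 TPM in A5-KO. In PPs it overlapped at 0 h, with 6.23 and 8.68 CPM in WT against 8.53 and 9.05 CPM in A5-KO. From 1 h on the A5-KO libraries lay above WT, with the widest gap at 1 h, where WT held 6.49 and 7.09 CPM and A5-KO 13.6 and 13.6 CPM, a 2.01-fold difference. The gap was 1.47-fold at 2 h and 1.19-fold at 3 h.

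IFITM1 was lower in A5-KO at both stages. In hILOs it measured 162 and 152 TPM in WT against 85.9 and 76.7 TPM in A5-KO, 1.93-fold lower. At 0 h in PPs it measured 6.11 and 7.44 CPM in WT against 1.21 and 1.93 CPM in A5-KO, 4.32-fold lower. All 8 A5-KO libraries lay below all 8 WT libraries, whose lowest was 4.03 CPM against an A5-KO highest of 3.19 CPM. The difference narrowed to 1.51-fold at 3 h, where WT held 4.03 and 4.39 CPM and A5-KO 2.39 and 3.19 CPM. IFITM1 sits in a cluster on chromosome 11 beside its near-identical paralogs IFITM2, 644 bases away, and IFITM3, 4404 bases away, and reads of these genes may have been split among them. IFITM2 and IFITM3 were no members, and their values stand with the pathway genes below.

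IFI6 was also lower in A5-KO, by a small margin in hILOs. There it measured 1094 and 1066 TPM in WT against 942 and 951 TPM in A5-KO, 1.14-fold lower. In PPs at 0 h the values were 8.41 and 9.73 CPM in WT against 2.72 and 5.77 CPM in A5-KO, 2.14-fold lower. In CPM the A5-KO libraries lay below the WT libraries of the same time at 1, 2 and 3 h as well, by 1.45-fold, 1.29-fold and 1.35-fold. At 2 h the nearest pair was 7.96 CPM (WT) beside 7.91 CPM (A5-KO). That pair held 248 reads (WT) and 271 reads (A5-KO), so in reads the groups overlapped at 2 h. IFI44L was 3.84 and 3.58 TPM in WT hILOs against 3.36 and 3.90 TPM in A5-KO hILOs, with overlap. In PPs it was close to silent, with 5 reads over the 8 WT libraries and 21 over the 8 A5-KO libraries, and its neighbour and relative IFI44 had no read in any PP library.

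**Figure D3:**
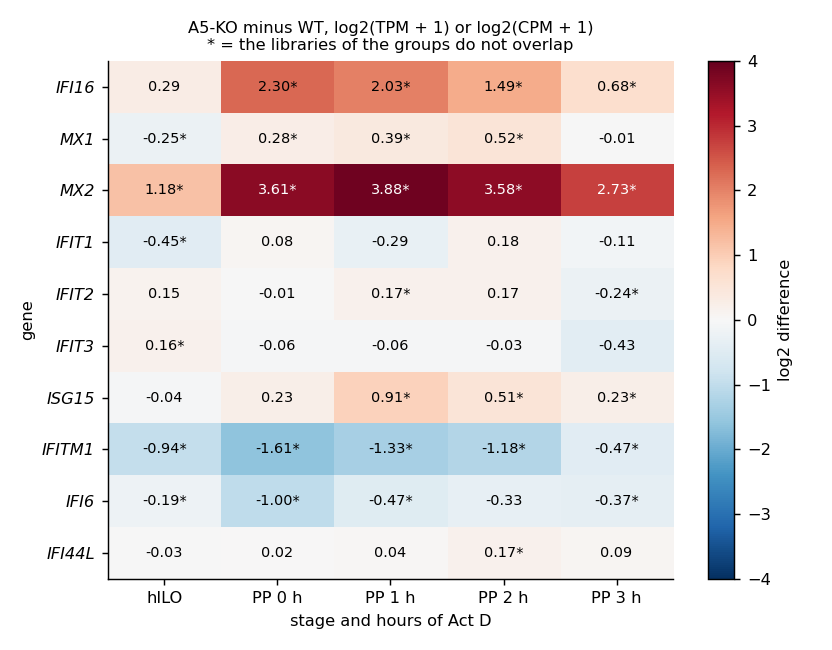
A5-KO minus WT for each gene as the difference of group means, with hILOs on log2(TPM + 1) and PPs on log2(CPM + 1). Asterisks mark groups whose libraries do not overlap, in PPs both in CPM and in reads. MX2 reaches 3.88 at 1 h, IFITM1 is lowest at -1.61 at 0 h, and IFI44L stays near 0, while the IFIT genes run from -0.45 for IFIT1 in hILOs to 0.18 for IFIT1 at 2 h.

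Counted together, the 10 genes showed no common direction. Over the 16 PP libraries, 2 of the 6 genes averaging 1 CPM or more, MX2 and IFI16, had all A5-KO libraries above all WT libraries, and 1 of 6, IFITM1, had all below. Over all 13620 genes with that mean, 1.05% lay wholly above and 0.58% wholly below. In hILOs the A5-KO libraries were above WT for 2 of 10 genes, MX2 and IFIT3, and below for 4 of 10, MX1, IFIT1, IFI6 and IFITM1. Over all 17300 genes tested there, 24.3% lay above and 37.1% below. Since the members were chosen on these values, nothing is read from these shares. The members' median log2 difference was -0.03 in hILOs, beside -0.06 over all genes, and at 0 h in PPs it was 0.15 over the 6 genes, beside 0.03. The all-gene median was -0.11 at 2 h and -0.13 at 3 h, and a median-of-ratios scaling brought it to -0.02 and -0.01. Under that scaling 4 differences close to 0 changed sign, those of MX1 at 3 h, IFIT3 at 2 h, and ISG15 and IFI44L in hILOs.

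Whether the members changed under Act D within a genotype was tested with limma across all genes (Benjamini-Hochberg adjusted p below 0.05 and over 1.5-fold), 6 members entering. CPM after Act D is a share of the RNA that remains, so every change is relative to the rest. All times are set against the same pair of 0 h libraries, whose values were among those known when the members were picked. The tests are therefore not independent of that choice, which alone can favour a change away from 0 h. No conclusion on the members as a set is drawn from them.

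In WT PPs 2 members rose at 3 h and none fell. MX2 rose by 1.27 ± 0.27 (log2(CPM + 1) with SE, limma adjusted p = 0.0056), and IFI16 by 0.85 ± 0.20 (limma adjusted p = 0.0086). At 0 h MX2 held only 14 and 19 reads, where adding 1 to the CPM shrinks a change. With edgeR on recovered reads the log2 change was 2.52 for MX2 and 1.05 for IFI16. Both 3 h libraries lay above both 0 h libraries for each gene. IFITM1 stood at -0.57 ± 0.23 and did not pass (limma adjusted p = 0.11). Over all genes 10.4% passed in WT at 3 h, and 15.5% at 1 h, when none of the 6 members did by limma, edgeR or DESeq2 or had an unadjusted p below 0.05. At 2 h 17.7% passed, again with none of the 6 members by any of the 3 tools and none with an unadjusted p below 0.05. The 3 h calls rested on few libraries: none remained without replicate 1 of WT at 0 h, IFI16 alone remained without replicate 1 at 3 h, and MX2 alone without replicate 2 at 3 h. Marker lists moved over the same hours in WT, from 1090–1139 CPM at 0 h to 1485–1622 CPM at 3 h for the liver list and from 109.8–117.6 to 149–165 CPM for the mesenchyme list. The pancreatic progenitor list went from 815–1039 to 329–341 CPM, and the part of these lists was not tested.

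In A5-KO PPs IFI16 fell at 3 h, by 0.77 on the log2 scale (SE 0.20, limma adjusted p = 0.0034), the 1 of 6 members that passed, beside 33.1% of all genes. At 2 h, when 30.0% of all genes passed, IFI16 had also fallen by 0.77 (limma adjusted p = 0.0040), and IFI6 had risen by 0.62 ± 0.23 (limma adjusted p = 0.034), a call lost with no filter on low values. The pancreatic progenitor list went from 742–820 CPM at 0 h to 86.6–99.1 CPM at 3 h in A5-KO, the mesenchyme list from 158–169 to 246–247 CPM and the liver list from 1896–1922 to 2176–2328 CPM. Their part in these changes was not tested. IFITM1 reached 0.57 ± 0.23 at 3 h (limma adjusted p = 0.048), short of 1.5-fold, and MX2 0.40 ± 0.27 (limma adjusted p = 0.23). At 1 h ISG15 stood at 0.58 ± 0.16 (limma adjusted p = 0.0095), just short of 1.5-fold, so that no member passed, while 17.8% of all genes did. At 1 h 2 members had an unadjusted p below 0.05, and edgeR and DESeq2 on recovered reads each called 2, ISG15 and IFI6, higher. The all-gene median change at 3 h in A5-KO was -0.22 with limma and 0.03 with edgeR. On the edgeR scale the change of IFI16 was -0.52, under 1.5-fold, and IFITM1 passed instead, at 1.1. The call of IFI16 was also lost without replicate 1 of A5-KO at 0 h, with 0 members left. At 2 h the edgeR change of IFI16 was likewise -0.52, and ISG15 passed there beside IFI6. Without replicate 1 of A5-KO at 0 h the 2 h changes of IFI16 and IFI6 were -0.60 and 0.19 and neither passed, and without replicate 1 at 2 h IFI6 stood at 0.41 and did not pass.

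**Figure D4:**
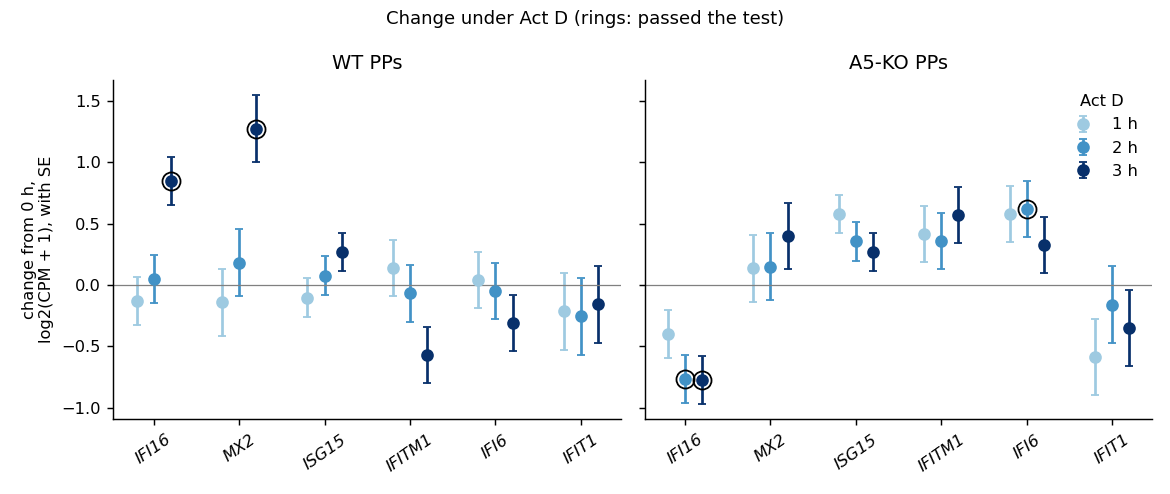
Change from 0 h on log2(CPM + 1) with its SE for the 6 members tested in PPs, at 1, 2 and 3 h of Act D, with rings on values that passed the test. IFI16 and MX2 rise at 3 h in WT, IFI16 falls at 2 and 3 h in A5-KO, IFI6 rises at 2 h in A5-KO, and ISG15 is near 0.58 at 1 h in A5-KO.

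The rest of the interferon pathway was followed through a list of 111 genes that are no members. The list was drawn up with earlier results of these data known, so its tests are not independent of that choice. In hILOs 93 of them were tested and 3 were lower in A5-KO, beside 4.09% of all 17300 genes. SOCS3, a feedback inhibitor of JAK kinases, was 10.6 and 11.4 TPM in WT against 2.86 and 3.40 TPM in A5-KO, a log2 difference of -1.55 ± 0.14 (SE; limma adjusted p = 0.010). BST2, or tetherin, which holds budding virus at the cell surface, was 24.7 and 23.2 TPM in WT against 10.1 and 10.4 TPM in A5-KO (-1.14 ± 0.09, limma adjusted p = 0.0078). IFITM2 was 46.3 and 43.0 TPM in WT against 23.4 and 25.8 TPM in A5-KO (-0.84 ± 0.08, limma adjusted p = 0.012). IFITM3, a further gene of that cluster, was 349 and 344 TPM in WT against 235 and 230 TPM in A5-KO. Its log2 difference of -0.57 ± 0.03 passed the p limit (limma adjusted p = 0.0052) but was just under 1.5-fold.

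None of the 93 was called higher in hILOs, beside 2.7% of all genes, though 16 of them were higher and 15 lower with an unadjusted p below 0.05 in limma, the tool run there, beside 12.2% and 18.7% of all genes. No interferon gene was tested: of 11 ligands 7 were at 0 in all 4 libraries and the highest value was 0.275 TPM. The 6 receptors ran from -0.49 to 0.33, the 11 kinases, STATs and IRFs tested from -0.50 to 0.29, and the 9 sensors and adaptors from -0.39 to 0.31, with no call. The 48 other interferon-stimulated genes had a median of -0.04 and ran from -1.14 to 0.98. The highest was SAMD9L, at 1.19 and 1.02 TPM in WT against 3.64 and 2.72 TPM in A5-KO (limma adjusted p = 0.057). The 15 antigen presentation genes had a median of 0.27 and no call. The 3 calls depended on each library: without WT replicate 1, WT replicate 2 or A5-KO replicate 2 no pathway gene was called lower, and without A5-KO replicate 1 2 other genes, IFITM3 and IRF1, were.

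In PPs at 0 h 62 pathway genes were tested and 3 were lower in A5-KO, beside 1.1% of all genes. IFNGR2, a chain of the receptor for interferon gamma, was 25.1 and 34.8 CPM in WT against 11.0 and 17.9 CPM in A5-KO (-1.02 ± 0.23, limma adjusted p = 0.015). IFITM2 was 19.5 and 23.1 CPM in WT against 12.1 and 13.8 CPM in A5-KO (-0.67 ± 0.14, limma adjusted p = 0.010). LGALS3BP, a secreted glycoprotein, was 93.1 and 93.7 CPM in WT against 55.8 and 64.2 CPM in A5-KO (-0.63 ± 0.10, limma adjusted p = 0.00094). Next to the members, the IFITM cluster thus held IFITM1 and IFITM2 lower at both stages. IFITM3 stood at -0.53 in PPs at 0 h (limma adjusted p = 0.0086), again under 1.5-fold.

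None of the 62 was called higher in PPs at 0 h by limma, edgeR or DESeq2, beside 1.43% of all genes, and 4 were higher and 8 lower with an unadjusted p below 0.05 in limma, beside 9.35% and 7.22% of all genes. Of the 11 ligands 9 had no read in the 4 libraries at 0 h. The 9 kinases, STATs and IRFs ran from -0.32 to 0.16 and the 8 sensors and adaptors from -0.06 to 0.28, with no call. The 32 other interferon-stimulated genes tested ran from -0.67 to 0.73, with 2 called, both lower. The median over the 62 genes was -0.03, beside 0.03 over all genes. Without replicate 1 of A5-KO at 0 h no gene was called lower, and without replicate 2 of WT at 0 h LGALS3BP alone was.

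The genes most like the members over the PP libraries were sought by Pearson's r with the mean log2(CPM + 1) of the 6 members, among 8918 genes averaging 10 CPM or more. LGALS3 came first (r = 0.978 over 16 libraries), then ANXA13 (0.977), TTR (0.974), PKIB (0.973) and SLC7A7 (0.971). All 5 were higher in every A5-KO library than in every WT library, as with LGALS3 at 79.7 to 139 CPM in WT against 218 to 243 CPM in A5-KO. The 16 points share the split by genotype and the Act D times, so these values describe that split. TTR is also one of the liver markers above. The mean itself joins members that ran in opposite directions: over the 16 libraries IFITM1 had r = -0.937 with MX2 and -0.972 with IFI16, and IFI6 had -0.742 and -0.811. MX2 and IFI16 had r = 0.936 over the 16 libraries, but 0.867 over the 8 WT libraries and -0.364 over the 8 A5-KO libraries.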

How the data were processed

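RNA was sequenced from 4 hILO and 16 PP libraries of the MEL1 INS-GFP/W reporter line (NEBNext Ultra kit). The authors aligned reads with HISAT2 2.1.0 to GRCh38 after fastp and deposited TPM per gene for hILOs and, for PPs, CPM without the ERCC spike-ins. Every deposited CPM value gave a whole read count within 0.05, so read counts were recovered for PPs; the depth of hILOs is unknown. Whether counting used strand is not given in the sources used here. The members and the gene lists were chosen with earlier results of these data known. Symbols came from GENCODE, promoters from RefSeq.

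The log2(TPM + 1) or log2(CPM + 1) values of genes with a mean of at least 1 were fitted with limma 3.58.1 (R 4.3.3), for PPs over all 16 libraries with 8 group means, calls needing over 1.5-fold and an adjusted p (Benjamini-Hochberg, all genes) below 0.05. Code was tested on simulated data. Alternatives were a pseudocount of 0.1, no filter, median-of-ratios scaling, a replicate block, leaving out each library, the 4 libraries compared alone, edgeR 4.0.16 and DESeq2 1.42.0 on recovered reads. Named genes are the members, ALKBH5, at most 5 called pathway genes per direction and stage, and the 5 genes most like the members in PPs. Genes named outside this rule (neighbours, paralogs, markers, genes called under an alternative) were chosen after their values were seen.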

Additional observations from a re-analysis of the deposited data

Results flagged for a closer look

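Several members moved in opposite directions in different settings, with no overlap between the groups in either, on log2(value + 1). The difference between the opposite changes was not tested in any of them, because the members were chosen on the contrast of the genotypes.

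MX1 in A5-KO minus WT was -0.25 in hILOs and 0.28, 0.39 and 0.52 in PPs at 0, 1 and 2 h, the PP values resting on 7 to 34 reads a library. IFIT2 was 0.17 at 1 h and -0.24 at 3 h in PPs, on at most 19 reads a library.

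Under Act D, 3 h minus 0 h, IFI16 changed by 0.85 in WT and -0.77 in A5-KO. IFITM1 changed by -0.57 in WT and 0.57 in A5-KO, where the WT value did not pass the test and the A5-KO value was under 1.5-fold.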

How the results depend on the processing

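Counts of calls were recomputed under each alternative. Pathway genes lower in A5-KO hILOs numbered 3, and 1 with no filter on low values. Those higher numbered 0, and 1 with median-of-ratios scaling. Members changed at 3 h in WT PPs numbered 2, and 1 with no filter. At 1 h in A5-KO PPs the count of 0 became 2 with edgeR, DESeq2 or median-of-ratios scaling and 1 with a pseudocount of 0.1. At 3 h in A5-KO PPs the count of 1 became 2 with a pseudocount of 0.1 (IFI16 and IFITM1) and 2 with median-of-ratios scaling, where IFI16 was lost and MX2 and IFITM1 were called. With edgeR and DESeq2 it stayed 1, but the gene was IFITM1 and not IFI16. The cause was not tested.

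Leaving out 1 library gave 0 to 2 pathway genes lower and 0 to 1 higher in A5-KO hILOs, and 0 to 4 lower and 0 to 1 higher in A5-KO PPs at 0 h. It gave 0 members changed at 1 h and 0 to 2 at 3 h in WT PPs, and 0 to 2 at 1 h and 0 to 3 at 3 h in A5-KO PPs. With 2 libraries a group, a lone library is assumed to vary like the others.

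Replicate numbers gave little sign of pairing: WT and A5-KO PPs of the same number had deviations that correlated at 0.181, -0.00944, -0.0594 and -0.0167 at 0 to 3 h. Over all pairs of groups the mean was -0.00862 and the lowest -0.255. Such correlations cannot exclude a batch shared by samples of the same number. With a replicate block the counts were 3 lower and 0 higher in hILOs, 3 lower and 0 higher in PPs at 0 h, 0 and 2 members changed at 1 and 3 h in WT, and 0 and 1 in A5-KO, as without the block.

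Of the members' genotype differences, 30 of 50 stayed within 1 SD with a pseudocount of 0.1 and 43 of 50 with median-of-ratios scaling. With 2 libraries a group, leaving out 1 cannot move a difference past that bound.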
